A study of Mus musculus with 6 samples.

Results

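The regions described here are stretches of H3K4me3 that lie deep inside protein-coding genes and were called in both genotypes of the study. They were selected on the position of the called peaks. Both peak lists were merged on chromosomes 1 to 19 and X, with a gap of 0 bp. A merged region was kept if it was shorter than 6000 bp, held sequence from both lists, lay inside a protein-coding gene, and was at least 5 kb from the start and the end of every annotated gene of any biotype. The rule gave 6521 regions, called shared gene-body regions in what follows, which were 11.2% of all 58390 merged regions (95% exact binomial interval 10.9 to 11.4%) and 19.1% of the 34228 merged regions shared by both lists (18.6 to 19.5%). Intervals of this kind cover counting error only. Presence in both lists, width and distance from gene boundaries chose the regions, so none of these is a finding. The study profiled histone marks by native chromatin immunoprecipitation and sequencing of micrococcal nuclease-digested chromatin from CD8+ tumour-infiltrating lymphocytes. The lymphocytes came from e0771 tumours, a mouse mammary carcinoma, in mice of the C57BL/6 background. One group was wild type. The other carried a Cre-mediated deletion of Atg5, labelled Atg5-/- (KO), and Atg5 encodes a protein required to lengthen the autophagosome membrane. The labels do not name the promoter that drove Cre, the cells in which it was active, the age of the animals or any pooling of animals. Both groups were precipitated with the same anti-H3K4me3 antibody, and each genotype has 1 H3K4me3 library. No difference between the lists therefore has a replicate check, and every value below is a description of 2 libraries.

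H3K4me3 is trimethylation of lysine 4 of histone H3. It is placed mainly by SET1 and MLL complexes at promoters that are active or poised, and its strongest stretches sit over CpG islands at gene starts. Inside genes the mark can sit at a second promoter from which a shorter transcript starts, at strong intronic enhancers, and along genes of cell identity, where it can spread from the start far into the body as a broad domain. In T lymphocytes such domains are known at genes of T cell identity.

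The wild-type list held 48525 peaks and the KO list 46547. The labels do not give the total reads of the libraries, and the lists were called separately, so the length of a peak can move with depth and threshold as well as with the mark. The labelled cell type was checked at the 5′ ends of T cell genes, by the length covered within 2.5 kb to either side. Of 25 T cell surface and cytokine receptor genes with a known 5′ end, 4 (Cd3e, Cd8a, Ctla4 and Il2ra) had no covered base in this window in wild type, and 0 in KO. The start of Cd8a, the label's own defining gene, was covered over 0 bp in the wild-type list and 4386 bp in the KO list. Cd3e had 0 bp against 3615 bp, and Cd3d had 726 bp against 5001 bp. Summed over these 25 genes the covered length was 34682 bp in the wild-type list and 84050 bp in the KO list. For a single gene of this list the length ran from 0 to 4162 bp in wild type (median 1033) and from 745 to 5001 bp, the whole window, in KO (median 3476). Markers of other cell types that such a sample could hold were read in the same way. Of 14 myeloid genes 0 had no covered base in the wild-type list and 1 (Mrc1) in the KO list, and the lengths summed to 34791 and 27660 bp. The 17 epithelial genes summed to 31886 and 30929 bp, with Cldn3, Cldn4 and Ptprf at 0 in wild type and Cldn3 and Krt7 at 0 in KO. The 16 fibroblast and endothelial genes summed to 31305 and 30071 bp, with Erg, Tcf21, Tek and Tie1 at 0 in wild type and Tcf21, Tek and Tie1 at 0 in KO. NK cell genes (9) were at 1226 and 6144 bp and B cell genes (7) at 1158 and 5526 bp. The wild-type list therefore held no peak at the starts of Cd8a and Cd3e. It held peaks at most myeloid, epithelial and stromal starts, and also at all but 4 of the 25 T cell starts. For these T cell genes as a set, the difference between the lists was in covered length and in those 4 genes. In a bulk sample, fewer cells of a type and less of the mark per cell cannot be told apart, nor can either be told apart here from a library that does not match its label. The part of this difference in the results below was not tested.

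Some shared gene-body regions lay on annotated transcript starts of their own gene. RefSeq promoters of GRCm38.p6 place 1797 transcript starts, in 1368 genes, inside a protein-coding gene and at least 5 kb from every gene boundary. Of these, 537 were under 467 shared gene-body regions (7.16% of the 6521 regions, 6.55 to 7.81%), and all 537 belonged to the gene that held the region. The distance limit takes out starts near the boundary of any other gene, so this last count is not a finding. The sequences of 8 such starts are shown because their regions carry the comparisons that follow. Each is the 250 bases upstream of the start, written 5′ to 3′ on the strand of transcription in GRCm38.p6 coordinates, with every CG dinucleotide in capitals. Ripor2, St8sia1 and Sema4d hold the regions at starts that were longest in the KO list relative to wild type, and Adcy7 and Sbk3 those that were shortest. Nfatc2 and Nr4a1 are T cell activation genes. They were picked for the largest gain in KO at an internal start among the lymphoid signalling and lymphoid transcription factor genes listed below. In the same lists, regions at internal starts of Dgka (-292 bp) and Tcf12 (-213 bp) were shorter in KO. Sp110 holds the strongest region.
Ripor2, chr13:24638398-24638647, plus strand: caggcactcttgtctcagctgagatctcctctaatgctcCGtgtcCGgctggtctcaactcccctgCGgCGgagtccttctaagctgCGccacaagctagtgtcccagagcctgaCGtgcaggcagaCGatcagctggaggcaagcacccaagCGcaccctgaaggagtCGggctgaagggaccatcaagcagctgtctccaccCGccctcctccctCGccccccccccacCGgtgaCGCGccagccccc
St8sia1, chr6:142964453-142964702, minus strand: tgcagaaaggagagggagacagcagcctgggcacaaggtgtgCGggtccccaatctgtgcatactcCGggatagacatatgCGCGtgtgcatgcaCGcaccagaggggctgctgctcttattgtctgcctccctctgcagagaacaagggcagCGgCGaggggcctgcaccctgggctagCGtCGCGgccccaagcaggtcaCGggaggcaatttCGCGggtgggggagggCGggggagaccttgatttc
Sema4d, chr13:51748811-51749060, minus strand: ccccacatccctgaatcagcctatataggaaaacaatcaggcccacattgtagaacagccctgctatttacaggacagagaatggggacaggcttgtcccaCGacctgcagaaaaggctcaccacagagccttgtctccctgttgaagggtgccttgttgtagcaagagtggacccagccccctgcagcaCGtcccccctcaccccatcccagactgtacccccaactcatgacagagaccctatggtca
Adcy7, chr8:88282742-88282991, plus strand: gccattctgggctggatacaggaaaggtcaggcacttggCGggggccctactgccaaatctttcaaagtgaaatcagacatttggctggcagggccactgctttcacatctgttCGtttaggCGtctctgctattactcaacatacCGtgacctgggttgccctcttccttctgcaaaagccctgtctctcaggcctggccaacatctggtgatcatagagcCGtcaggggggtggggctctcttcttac
Sbk3, chr7:4970962-4971211, minus strand: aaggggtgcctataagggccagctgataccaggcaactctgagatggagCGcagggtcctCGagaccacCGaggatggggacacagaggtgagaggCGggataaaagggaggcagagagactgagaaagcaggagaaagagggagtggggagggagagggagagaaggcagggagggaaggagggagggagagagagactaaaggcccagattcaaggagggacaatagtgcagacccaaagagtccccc
Nfatc2, chr2:168590366-168590615, minus strand: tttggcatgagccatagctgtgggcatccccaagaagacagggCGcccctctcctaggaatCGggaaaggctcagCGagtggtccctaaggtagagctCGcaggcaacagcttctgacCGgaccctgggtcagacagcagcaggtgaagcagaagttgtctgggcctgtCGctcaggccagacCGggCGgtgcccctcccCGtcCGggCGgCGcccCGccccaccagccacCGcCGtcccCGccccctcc
Nr4a1, chr15:101266596-101266845, plus strand: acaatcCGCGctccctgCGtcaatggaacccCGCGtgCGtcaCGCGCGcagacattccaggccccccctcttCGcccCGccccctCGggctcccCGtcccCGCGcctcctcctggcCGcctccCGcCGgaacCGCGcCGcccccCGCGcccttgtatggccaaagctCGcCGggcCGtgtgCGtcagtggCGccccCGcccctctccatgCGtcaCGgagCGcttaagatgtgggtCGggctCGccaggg
Sp110, chr1:85598811-85599060, minus strand: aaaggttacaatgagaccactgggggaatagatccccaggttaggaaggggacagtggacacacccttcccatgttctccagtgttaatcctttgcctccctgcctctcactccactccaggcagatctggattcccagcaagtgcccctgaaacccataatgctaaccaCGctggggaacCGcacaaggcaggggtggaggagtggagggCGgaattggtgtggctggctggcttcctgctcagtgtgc

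These sequences differed widely in CpG content. The Nr4a1 sequence held 34 CG dinucleotides in 250 bases and that of Nfatc2 held 16. Ripor2 and St8sia1 held 14 each. Adcy7 held 5, Sbk3 4, Sp110 3 and Sema4d 2, so a region could be long in one list, or strong in both, at a start with few CG dinucleotides. Nr4a1, a nuclear receptor gene induced by T cell receptor stimulation, was covered over 1168 bp in the wild-type list and 2899 bp in the KO list. At Nfatc2, which encodes a calcium-regulated transcription factor of T cell activation, the lengths were 1958 and 3993 bp. Nfatc2 as a whole went the other way. It held 10 shared gene-body regions, 4 longer and 6 shorter in KO, with a median difference of -196.5 bp. Its 5′ end was covered over 3216 bp in wild type and 2023 bp in KO. The region at the inner start of Ripor2, a regulator of cell polarity, ran over 1072 bp in the wild-type list and 5106 bp in the KO list. At St8sia1, the sialyltransferase gene for ganglioside GD3, the lengths were 456 and 4481 bp, and at Sema4d, a semaphorin made by T cells, 548 and 4536 bp. The opposite held at Adcy7, an adenylate cyclase gene, with 4899 bp in the wild-type list and 694 bp in the KO list, and at Sbk3, a protein kinase gene, with 2958 and 1184 bp. The Adcy7 value rests on where a region ends. A neighbouring region from 88287952 to 88295312 on chromosome 8 was covered over 4100 bp in the wild-type list and 7361 bp in the KO list, and merging regions up to 1 kb apart turned the difference at Adcy7 from -4205 to 2312 bp.

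Internal starts under shared gene-body regions were richer in CpG than internal starts under no called region. Over the 300 bases from 250 before to 50 after the start, the median was 13 CpG (quartiles 7 and 24) at the 537 starts under shared gene-body regions and 4 (2 and 7) at the 1034 internal starts under no region of either list. The median over all 32619 promoters of the table was 7, and over the 10377 starts at coding gene boundaries it was 10. Starts under a region of the wild-type list alone numbered 28, with a median of 6, and those under a region of the KO list alone numbered 43, with a median of 8. A further 155 starts lay in regions that were wider or reached closer to a gene boundary, with a median of 13. Median GC content was 57.7% under shared gene-body regions and 49.3% under no region. Short motifs were counted as exact letters on both strands of the 300 bases. The letters GGGCGG, the core bound by SP and KLF factors, were present at 52.9% of starts under shared gene-body regions, 17.7% of those under no region and 35.9% of all promoters. The word overlaps CpG content, since it holds a CG itself. CCGGAA, an ETS core that also holds a CG, was found at 14.2%, 4.84% and 15.0%. TATAAA, the TATA box, went the other way with 8.01%, 15.9% and 13.7%, and TGTGGT, a RUNX core, was at 14.3%, 20.4% and 16.6%. CCAAT, bound by NF-Y, hardly differed at 38.0%, 36.7% and 37.6%. A match is a description of letters and not a bound site.

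**Figure D1:**
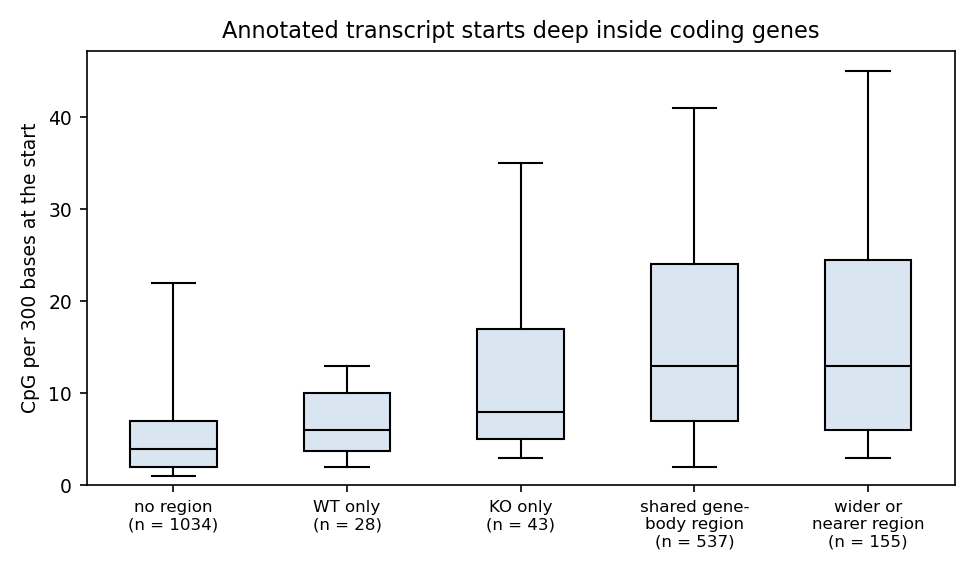
CpG dinucleotides per 300 bases (vertical axis) at annotated transcript starts deep inside coding genes, by the H3K4me3 region over the start (horizontal axis, with the number of starts). Boxes span the quartiles around the median, and whiskers run from the 5th to the 95th percentile; starts under shared gene-body regions have a median of 13 and those under no region a median of 4.

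Regions at an internal start were longer and nearer in length between the lists than the rest. The 467 regions at starts had a median merged width of 2496 bp, against 1348.5 bp for the 6054 regions away from annotated starts. The length covered by each list had medians of 2160 bp in wild type and 2186 bp in KO at starts, and 1171 and 955 bp away from them. The KO minus wild-type difference had a median of -20 bp (95% order-statistic interval -67 to 50) at starts and -206 bp (-219 to -191) elsewhere. Regions with at least 1.5 times the length in the wild-type list were 32 of 467 (6.85%) at starts and 1862 of 6054 (30.8%) elsewhere. Regions with at least 1.5 times the length in the KO list were 72 (15.4%) and 860 (14.2%), so the gap between the sets lay on the wild-type side. Width moves with this comparison: among regions 2 to 3 kb wide the medians were -95 bp at the 155 with a start and -270 bp at the 943 without, and the shares longer in KO were 38.7% and 36.4%. By these ratios, CpG content of the start separated the regions further. Of 223 regions whose richest start had 15 or more CpG, 5 (2.24%) were at least 1.5 times longer in wild type and 28 (12.6%) in KO. Of 184 regions with 5 to 14 CpG, 17 (9.24%) were so in wild type and 27 (14.7%) in KO. Of 60 regions with under 5 CpG, 10 (16.7%) were so in wild type and 17 (28.3%) in KO. The shares simply longer in KO had no such order, at 52.5%, 43.5% and 51.7%. Strength moved with CpG, with median wild-type percentiles of 82.5, 73.1 and 55.4. Strength also differed between regions at starts and the rest. The percentile of a region's strongest peak, ranked by the authors' −log10 q within its own list, had medians of 77.4 in wild type and 77.7 in KO at starts, and 50.6 and 43.3 elsewhere.

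Shared gene-body regions were a minority of what was called deep inside genes. Of 15000 merged regions under 6000 bp in such positions, 6521 (43.5%) were shared, 3904 were in the wild-type list alone and 4575 in the KO list alone. Within 1 kb of a coding gene boundary 11457 of 13212 regions (86.7%) were shared. At least 5 kb outside every gene 6039 of 11725 (51.5%) were shared, with 3871 in the wild-type list alone and 1815 in the KO list alone. Per Mb of sequence, the shared gene-body regions numbered 8.34 over 782 Mb of eligible gene interior. The value was 5.66 over 1067 Mb at least 5 kb outside genes and 146 over the sequence within 1 kb of coding gene boundaries. KO-only regions numbered 5.85 per Mb of gene interior and 1.70 per Mb outside genes, while wild-type-only regions numbered 4.99 and 3.63. Across chromosomes the shared gene-body regions ranged from 2.62 per Mb on chromosome X to 12.2 per Mb on chromosome 11. Most were simple, since 6189 (94.9%) joined 1 wild-type and 1 KO peak, and 38 lay in more than 1 coding gene.

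The regions fell into 3345 of the 13445 protein-coding genes that have any eligible interior (24.9%). Host genes were long, with a median of 81.6 kb against 27.5 kb for genes with an interior and no shared region, as the distance rule favours. A single region was held by 1898 hosts, and 1447 held at least 2. The strand was known for 2596 hosts, those whose promoters in the RefSeq table share a strand. The 5′ end was taken as the outer gene coordinate on the upstream side. It need not be an annotated transcript start, so an unmarked 5′ end can belong to a gene with an inner promoter. Among these hosts the 5′ end was marked in both lists in 1689 (65.1%). This was close to 66.5% of the 8095 genes with an interior and no shared region. Per Mb of interior, however, genes marked at the 5′ end in both lists held 10.4 regions and genes marked in neither list held 5.56. The density was highest 10 to 20 kb from the 5′ end, at 13.3 regions per Mb, and 11.7 at 5 to 10 kb. It was 10.7 at 20 to 50 kb, 9.49 at 50 to 100 kb, 6.62 at 100 to 200 kb and 3.72 beyond 200 kb. The share of regions longer in the KO list went from 35.7% at 5 to 10 kb to 29.1% beyond 200 kb, and the median width from 1454 to 1228 bp. The median position was 44.0% of the host's length from its 5′ end (quartiles 25.2 and 66.7%).

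**Figure D2:**
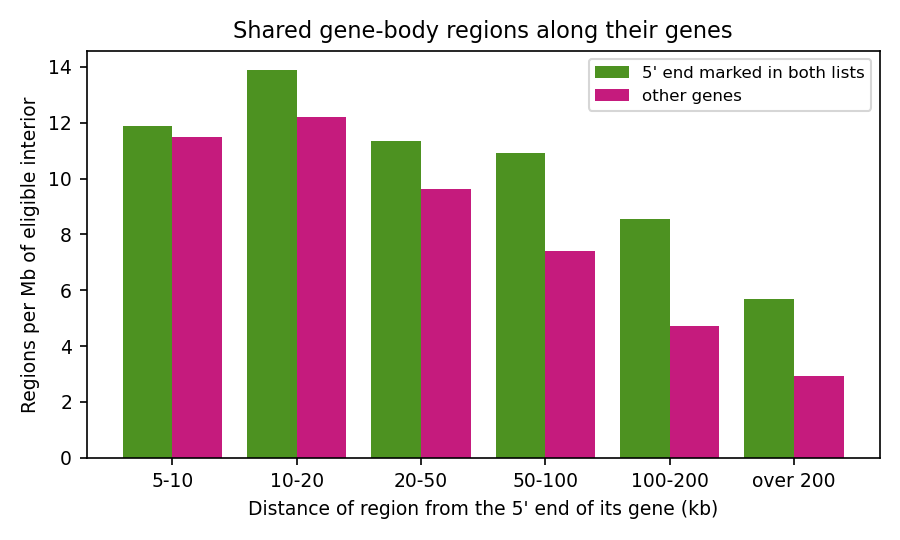
Shared gene-body regions per Mb of eligible gene interior (vertical axis) by distance from the 5′ end of the host gene in kb (horizontal axis), for genes whose 5′ end was marked in both lists (green) and other genes of known strand (magenta). Density in genes marked in both lists runs from 13.9 per Mb at 10 to 20 kb to 5.67 beyond 200 kb, and in other genes from 12.2 to 2.92.

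Within each list these regions were of middling strength and length. The median merged width was 1395 bp (quartiles 969 and 2051), against 2532 bp for shared regions within 1 kb of a coding gene boundary and 1239 bp for those outside genes. The strongest peak of a shared gene-body region had a median percentile of 51.9 in wild type and 45.5 in KO. Near gene boundaries the medians were 83.8 and 84.4, and outside genes 55.9 and 43.7. The authors' fold enrichment at the summit had a median of 8.55 in wild type and 7.19 in KO. The reads at each summit, recovered from the deposited fold and p, had a median of 33 in wild type (quartiles 21 and 54) and 26 in KO (18 and 43), where the genome-wide background of the lists was 2.85 and 2.62 reads and the lowest summit in either list held 10. The summits of the 2 lists lay within 200 bp of each other in 4630 regions (71.0%), with a median distance of 87 bp.

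Between the lists, shared gene-body regions were mostly shorter in KO. The median length covered was 1213 bp in the wild-type list and 1011 bp in the KO list. In KO 2084 regions were longer (32.0%, 30.8 to 33.1%), 4430 were shorter (67.9%) and 7 were equal. Over all 33341 shared regions under 6000 bp, 33.7% were longer and 66.1% shorter, so these shares were near the background. At least 1.5 times the length in KO was seen in 932 regions (14.3%, 13.5 to 15.2%), against 9.87% of all shared regions, and at least 1.5 times the length in wild type in 1894 (29.0%, 27.9 to 30.2%), against 20.7%. Shared regions outside genes had 6.81% towards KO and 33.3% towards wild type, and those near gene boundaries 8.52% and 4.50%, so the share towards wild type was lower here than outside genes. The median difference, KO minus wild type, was -191 bp (-204 to -181). It was -146 bp over all shared regions, -33 bp near gene boundaries and -252 bp outside genes. Summit reads scaled to the background of each list gave a median log2 ratio of -0.29, against -0.08 over all shared regions, 0.20 near gene boundaries and -0.46 outside genes. In each width class from 1000 bp up, lengths at least 1.5 times apart in either direction were more frequent than among other shared regions. Of 617 shared gene-body regions 3000 to 6000 bp wide, 189 (30.6%) were at least 1.5 times longer in KO, against 9.13% of the 4920 other shared regions of that width. At 2000 to 3000 bp the shares were 17.9% of 1098 and 7.18% of 6556, and at 1000 to 2000 bp 12.2% of 3041 and 9.30% of 10222. Under 1000 bp they were 9.92% of 1765 and 9.55% of 5122. Towards wild type the shares were 10.7% and 4.09% at 3000 to 6000 bp, and 21.9% and 8.34% at 2000 to 3000 bp. At 1000 to 2000 bp they were 34.6% and 26.8%, and under 1000 bp 30.4% and 29.9%. The width of a merged region is at least the longer of its lengths, so it is not independent of this difference.

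**Figure D3:**
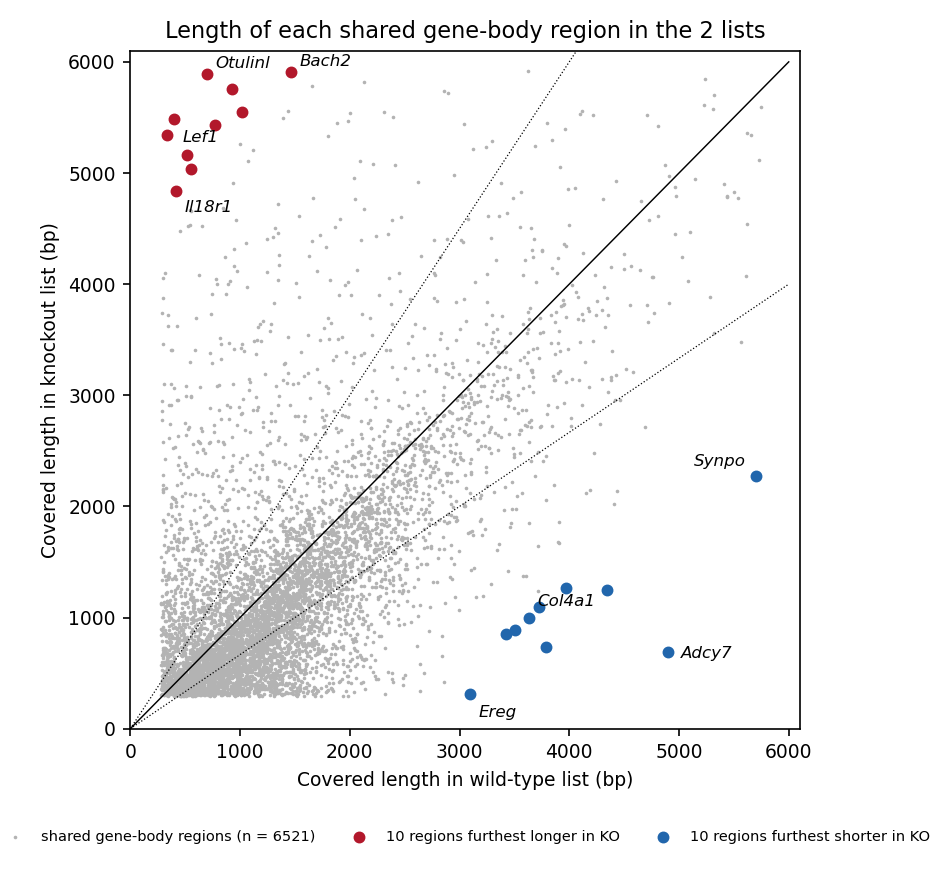
Length in bp covered by the wild-type list (horizontal axis) and by the knockout list (vertical axis) for each of the 6521 shared gene-body regions. The solid line marks equal lengths and the dotted lines a ratio of 1.5; red and blue points are the 10 regions with the largest difference in each direction, such as Lef1 (398 and 5487 bp) and Adcy7 (4899 and 694 bp).

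The regions that were longest in KO relative to wild type included several in lymphocyte genes. Within Lef1, the transcription factor gene of naive and memory T cells, the region at chr3:131134815-131140301 was covered over 398 bp in the wild-type list and 5487 bp in the KO list, a difference of 5089 bp. It lies 27.3 kb from the 5′ end of the gene. The summit at Lef1 held 19 reads in wild type (exact 95% Poisson interval 11.4 to 29.7) and 31 in KO (21.1 to 44.0), with overlapping intervals. The summits of the lists lie 1921 bp apart there, so the reads do not compare height at the same place. Bach2, a repressor that restrains effector differentiation, had 1463 and 5908 bp at chr4:32287425-32293332, with 26 and 41 summit reads. In Il18r1, which encodes the receptor for interleukin 18, the lengths at chr1:40472741-40477577 were 421 and 4837 bp, and the summit reads of 11 (5.49 to 19.7) and 46 (33.7 to 61.4) did not overlap in their intervals. The largest difference, predicted genes aside, was 5190 bp in Otulinl, with 700 and 5890 bp and 18 against 53 summit reads. Cdc42se2, whose product binds the GTPase Cdc42, had 337 and 5346 bp and 13 against 66 reads. Rgs3, a regulator of G protein signalling, had 1017 and 5551 bp and 17 against 86 reads. The other 4 of the 10 were in Ranbp9 (4824 bp), Spata13 (4660 bp), Susd6 (4648 bp) and Atp1b3 (4485 bp). None of the 10 lay on an annotated internal start.

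The regions that were shortest in KO relative to wild type lay in genes of several kinds. After Adcy7 came Synpo, an actin-associated protein gene, with 5701 bp in the wild-type list and 2272 bp in the KO list. Frmd4a, a scaffold gene of epithelial polarity, had 4345 and 1247 bp at chr2:4406601-4410945. Ereg, the gene for the growth factor epiregulin, had 3094 and 315 bp at chr5:91081101-91084194, with 36 summit reads in wild type and 15 in KO. Col4a1, a basement membrane collagen gene, had 3633 and 994 bp with 27 against 13 reads. The remaining 5 differences of the 10 ran from -3048 bp in Cux1 to -2568 bp in Asap2, with Rnf216 at -2704, Anxa3 at -2627 and Igf2r at -2613 bp. All 10 had fewer summit reads in KO, but the exact 95% Poisson intervals of the reads overlapped between the lists in 9 of them and were apart in Ereg alone. Among the 10 regions longest in KO they overlapped in 3. The summits of the lists were not always at the same place. They lay 906 bp apart in Ereg, 2993 bp in Frmd4a, 1808 bp in Il18r1 and 2418 bp in Rgs3, but 11 bp in Igf2r and 62 bp in Otulinl. Where they lay apart, the reads do not compare height at the same place. The largest differences in length were smaller than those in the other direction, -4205 bp at the extreme against 5190 bp.

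Genes of T cell receptor and lymphoid signalling held regions that were more often longer than shorter in KO. Of 35 such genes 26 held 73 regions, 14.0 per Mb of interior against 8.34 over all genes. Of the 73, 44 were longer in KO and 29 shorter, with a median difference of 244 bp (-72 to 608). The intervals of list medians, here and below, treat regions as independent, although several can lie in 1 gene. Over all shared gene-body regions 32.0% were longer, with a median of -191 bp. At least 1.5 times the length was seen in KO for 28 (14.3% over all shared gene-body regions) and in wild type for 15 (29.0%). Elmo1, a partner of DOCK proteins in Rac activation, had 540 and 4667 bp at chr13:20183037-20187703, with 20 summit reads in wild type and 91 in KO. Ptprc encodes CD45, the phosphatase that keeps Lck active. Its region at chr1:138129065-138133723 had 556 bp in wild type and 4659 bp in KO, and the next, at chr1:138134340-138139883, had 2002 and 5544 bp. Within Prkch, a protein kinase C gene of T cells, the lengths at chr12:73697476-73702587 were 2096 and 5112 bp. Grap2, the gene of the adaptor GADS, had 512 and 3081 bp, and Dock2, the Rac activator of lymphocytes, had 2129 and 4672 bp at chr11:34769002-34773673. Not all were longer, and Nfatc1 held the lowest value of the list, -1501 bp. The summit reads moved less than the lengths, with more scaled reads in KO for 38 regions and fewer for 35, and a median log2 ratio of 0.05, beside -0.29 over all shared gene-body regions. The median was 26 bp with −log10 q limited to 5 or more or with a length overlap of 50%, 31.5 bp with a 1 kb merging gap, and 408.5 bp with no width limit (55 of 84 longer). With only the 20000 strongest peaks of each list 12 regions were left, 5 longer and 7 shorter, and it turned to -230 bp. At the 5′ ends of 27 of these genes the covered length summed to 51552 bp in the wild-type list and 91159 bp in the KO list, and 24 were longer in KO.

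Lymphoid transcription factor genes also held more regions that were longer than shorter in KO. Of 33 genes, 23 held 63 regions, of which 38 were longer in KO and 25 shorter, with a median of 135 bp (-67 to 406). Ratios of at least 1.5 were 24 towards KO and 9 towards wild type, where all shared gene-body regions had 14.3% and 29.0%. Over the alternative settings the median ran from 9 bp, with a length overlap of 50% (22 longer, 21 shorter), to 421 bp with −log10 q limited to 10 or more. Bach2 alone held 8 regions, 5 of them longer in KO, with a median difference of 1302 bp. Foxp1, a factor of T cell quiescence, had 1115 and 5204 bp at chr6:99431999-99437202, and Foxo1, which drives the naive and memory programme, had 1053 and 4367 bp at chr3:52339831-52344197. Prdm1 encodes BLIMP1, a factor of effector differentiation, and had 2388 and 4574 bp. Elf1, an ETS factor gene, had 287 and 2855 bp. The lowest value of the list was also in Foxp1, where the region at chr6:99446510-99448461 had 1952 bp in wild type and 859 bp in KO, and in Runx1, a lymphoid lineage factor gene, one region had 1231 and 360 bp. Scaled summit reads were higher in KO at 28 of the 63 regions and lower at 35, a median log2 ratio of -0.07 beside -0.29 over all shared gene-body regions, of which 34.8% were higher. The 38 T cell surface and cytokine receptor genes held 12 regions in 9 genes, 7 longer and 5 shorter in KO, with a median of 49 bp. With so few regions this median ran from -212 bp, with the 20000 strongest peaks or a length overlap of 50%, to 761 bp at 10 kb from every gene boundary. Il2rb, a receptor chain for interleukin 2, had 1250 and 4404 bp, and Cd226, a costimulatory receptor gene, had 298 and 2145 bp. The 10 NK cell genes held 0 regions. Their eligible interior is short, 0.0472 Mb in all.

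Genes of the other cell types held regions that were mostly shorter in KO, as were 67.9% of all shared gene-body regions. The share was furthest above that in the myeloid and epithelial lists. The myeloid list held 11 regions in 6 genes, 1 longer and 10 shorter, with a median of -483 bp and 0 at 1.5 times or more towards KO. Spi1, which encodes the myeloid and B cell factor PU.1, had 1934 bp in wild type and 579 bp in KO at chr2:91097836-91099769. Mertk, a receptor for apoptotic cells on macrophages, had 2235 and 1313 bp, and Itgam, which encodes CD11b, had 1076 and 457 bp. Epithelial and mammary tumour genes held 36 regions in 11 genes, a density of 22.5 per Mb, and 32 of them were shorter in KO, with a median of -400 bp. Towards wild type 18 reached 1.5 times, towards KO 0. Grhl2, an epithelial transcription factor gene, had 1975 and 563 bp at chr15:37266385-37268359, Wwc1 had 1602 and 498 bp, and Nfib had 1591 and 534 bp. Fibroblast and endothelial genes held 25 regions in 9 genes, 5 longer and 19 shorter, with a median of -335 bp (0 bp over the 3 regions left with the 20000 strongest peaks). Cdh5, which encodes VE-cadherin, had 1777 and 558 bp, and Pecam1 held regions in both directions, 1779 against 2825 bp and 1738 against 902 bp. The 5 regions in B cell genes had a median of -174 bp (9 bp over the 1 region left with the 20000 strongest peaks), with Pax5, the B lineage factor, at 1924 and 1245 bp. Long neuronal genes held 34 regions at 0.921 per Mb, 8 longer and 26 shorter, with a median of -334 bp. That median is more negative than the -191 bp of all shared gene-body regions. The starts of 14 myeloid genes were 4 longer and 10 shorter in KO, those of 17 epithelial genes 6 longer and 10 shorter, and those of 16 fibroblast and endothelial genes 4 longer and 9 shorter. The part of cell make-up in these differences was not tested.

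Lists that mark no single cell type lay on both sides. Chromatin regulators had a median of 374 bp (-39 to 597) over 35 regions in 16 genes, with 23 longer and 12 shorter in KO and 13 against 1 at 1.5 times or more. The median ran from 115.5 to 432 bp over the alternative settings. Chd7, a chromatin remodeller gene, had 788 and 4001 bp at chr4:8836834-8840834, with 19 and 78 summit reads. Arid1a, a subunit gene of the BAF complex, had 1764 and 3602 bp, and Setd1b, which encodes an H3K4 methyltransferase, had 1020 and 2434 bp. At the starts of 25 chromatin regulators the covered lengths were nearer, 64404 bp in all in wild type and 72333 bp in KO. Autophagy and lysosome genes held 16 regions in 6 genes, 3 longer and 13 shorter, with a median of -203.5 bp, close to that of all shared gene-body regions. Atg10, the E2-like enzyme gene of ATG12 conjugation to ATG5, had 2506 and 484 bp at chr13:91037683-91040188. Ambra1, a scaffold of autophagy initiation, had 879 and 1964 bp with 33 and 96 summit reads, and Mitf, a lysosome gene regulator, had 2455 and 1529 bp. The deleted gene itself, Atg5, has 70837 bp of eligible interior and held no shared gene-body region. Its start was covered over 2926 bp in the wild-type list and 2705 bp in the KO list, which does not check the deletion, since no label states which exon was deleted. Ubiquitous long genes held 66 regions, 32 longer and 34 shorter, with a median of -22.5 bp, which turned to 360.5 bp over 12 regions with the 20000 strongest peaks, and with 35 higher and 31 lower in scaled summit reads. Fhit, a tumour suppressor gene, had 825 and 3324 bp at an internal start.

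**Figure D4:**
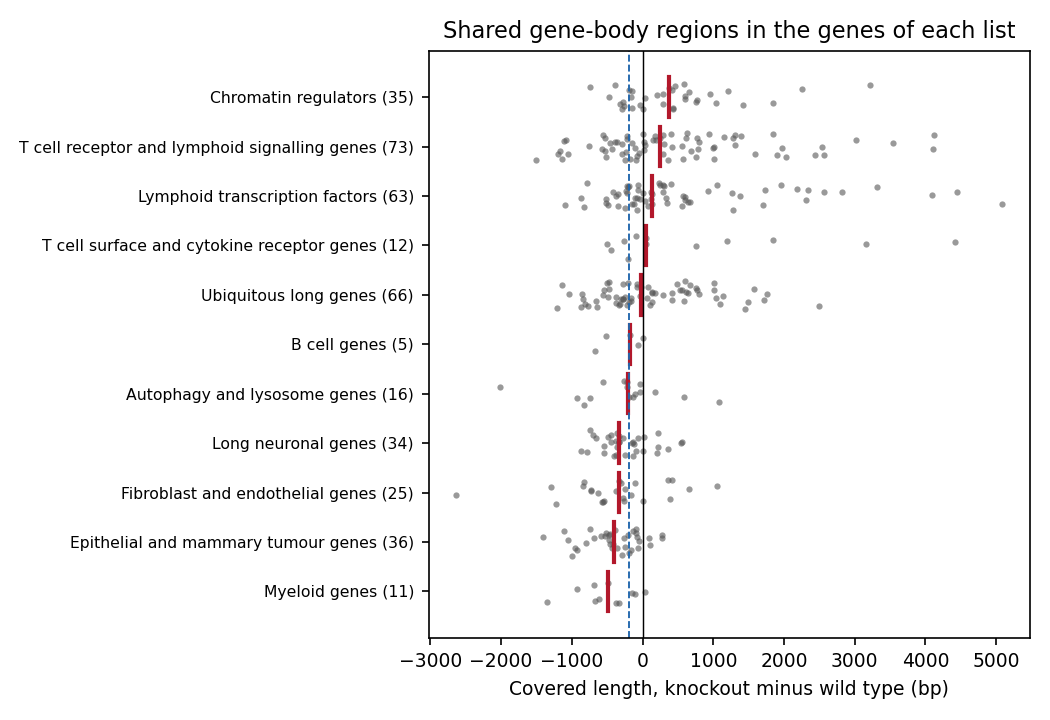
KO minus wild-type covered length in bp (horizontal axis) for every shared gene-body region in the genes of each list (grey points, spread vertically for visibility; number of regions in brackets). Red bars are list medians, from 374 bp for chromatin regulators to -483 bp for myeloid genes, the dashed line is the median of all 6521 regions (-191 bp) and the solid line marks no difference.

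Hosts with 5 or more regions mostly held both directions. Of 1447 genes with at least 2 regions, 136 had all of them longer in KO, 602 had all shorter and 706 held both directions. Among 254 genes with 5 or more, all regions were longer in 2 genes, Rapgef1 (6 regions) and Ncoa3 (5), all were shorter in 54, and 197 held both. Rapgef1 encodes an activator of the GTPase Rap1 and Ncoa3 a coactivator of nuclear receptors. Pde4d, a cyclic AMP phosphodiesterase gene of 1302 kb, held the most regions, 16, of which 7 were longer and 9 shorter. Akap13, a kinase-anchoring protein gene, held 12, of which 10 were longer, with differences from -372 to 2867 bp and a median of 625.5 bp. Its regions together covered 22423 bp in the wild-type list and 32702 bp in the KO list. Dlgap2, a postsynaptic scaffold gene, held 12 that were all shorter, from -1215 to -150 bp, with sums of 13959 and 8456 bp. Arhgef3 spanned -1065 to 3139 bp over 13 regions. Maml3, a coactivator gene of NOTCH signalling, had 4 of 15 longer, and Zfhx3 had 2 of 13. The medians of the other 8 genes were -35.5 bp in Atxn1, -61.5 in Pde4d, -130 in Tmcc3, -182 in Maml3, -225 in Arhgef3, -288 in Sox5, -292 in Gse1 and -390 in Zfhx3. The last of the 10 places was a tie at 11 regions. Tmcc3 took it with 5 longer and 6 shorter. Creb5, with 0 longer and 11 shorter, and Cdh13, with 1 longer and 10 shorter, held as many. The covered starts of host genes of known strand were compared as well. Where a host held a region at least 1.5 times longer in KO, its covered start was longer in 248 and shorter in 244 of 503 genes, and it was longer by at least 1 kb in 65 and shorter by as much in 8. Where a host held a region at least 1.5 times longer in wild type, the numbers were 375 and 444 of 831, and 58 and 20. Hosts of regions past neither ratio had 661 and 737 of 1420, and 102 and 24. These groups overlap, since a host with regions of more than 1 kind was counted in each.

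**Figure D5:**
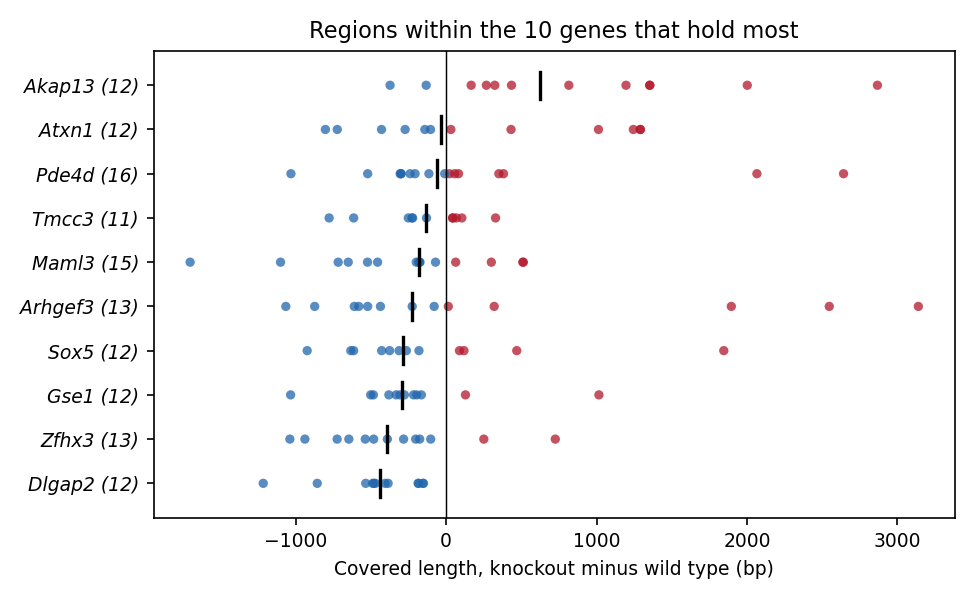
KO minus wild-type covered length in bp (horizontal axis) of each shared gene-body region in the 10 genes that hold most of them (number of regions in brackets), red for longer and blue for shorter in KO. Creb5 and Cdh13, which tied with Tmcc3 at 11 regions, are not shown. Black bars are medians, from 625.5 bp in Akap13 to -437 bp in Dlgap2.

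The strongest shared gene-body regions lay mostly on annotated starts. They were ranked by the mean within-list percentile of their −log10 q, so being high in both lists was fixed by the choice. Of the top 10, 9 lay on an annotated internal start, and the exception was Cdkl4. Sp110, an interferon-induced nuclear body gene, was first, with 4102 bp and 345 summit reads in wild type (310 to 383) and 5532 bp and 316 in KO (282 to 353). Its fold enrichment over local background, 27.5 in wild type and 31.7 in KO, was the lowest of the 10 in both lists. Adar, which encodes the RNA-editing enzyme and has a known inner promoter, had 2633 and 2551 bp with 217 and 208 reads. Hdac4, a class IIa deacetylase gene, had 1322 and 1612 bp, and Tank, an adaptor of innate signalling, had 2493 and 3028 bp. Over the 10 the differences ran from -806 bp in Ccdc77 to 1430 bp in Sp110. Tnrc6b, Mnat1, Smim10l1 and Zfp119b lay between, at 1142, -12, -155 and 85 bp.

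At the limits of the rule, the widest regions inside were in Cerkl (5923 bp), Ptpn1 (5919 bp) and Bach2 (5908 bp), and the first outside were in Tg and Sla (6034 bp), Cep85 (6047 bp) and Foxp1 (6109 bp). Nearest to a gene boundary inside were Syt2 (5005 bp), Macrod1 and Flrt1 (5006 bp) and St14 (5007 bp), and just outside Pkhd1 (4999 bp), Inhba (4998 bp) and Mideas (4995 bp). The width limit left out 107 shared regions deep inside genes that were 6000 bp or wider, so broad domains are not described by these values.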

How the data were processed

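Of the 6 samples, 2 were used: the H3K4me3 libraries labelled as CD8+ tumour-infiltrating lymphocytes of wild-type and of Atg5 knockout mice, 1 each. H3K27me3 and input were not analysed here. Per the submitters' processing notes, the tool was MACS2 and the build GRCm38 (mm10). No source used here names the aligner, a version, a setting or any use of the input. Each deposited peak carries the authors' fold enrichment (a ratio of summit to local background), −log10 p and −log10 q, a score that was not used, and a summit offset. These values were not scaled between libraries and were read within 1 list. Covered length was compared instead, without a test.

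Gene positions came from the RefSeq table of GRCm38.p6 (21631 protein-coding genes, 49554 of any biotype), which gives neither exons nor strand. Strand, transcript starts and sequences came from RefSeq promoters of that build, 300 bases each. A 5′ end was the outer gene coordinate on the upstream side, and it was called marked where a peak lay within 1 kb. Summit reads were recovered as the whole number that matches the deposited fold and −log10 p under a Poisson background (tolerance 0.001), for 48517 of 48525 wild-type and 46542 of 46547 knockout peaks. For comparison between the lists they were divided by the genome-wide background reads of each. The steps were tested on simulated data. Work was done in Python 3.11.15 with SciPy 1.17.1, pandas 2.3.3, NumPy 2.4.6 and, for figures, Matplotlib 3.10.9.

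Named regions were the 10 with the largest difference in each direction, the 10 strongest, the 10 genes with most regions, up to 4 hosts with the largest difference from each of 12 gene lists, 3 on each side of both limits, and Atg5. Predicted genes were passed over. The promoters shown, Dgka, Tcf12, Creb5, Cdh13, Rapgef1, Ncoa3 and further regions of listed genes were chosen after their values were seen. The regions and gene lists were chosen with earlier results of these data known.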

Additional observations from a re-analysis of the deposited data

How the results depend on the processing

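No paired analysis was possible because each genotype has 1 library. The cause of the shifts listed here was not tested. With a −log10 q of at least 5, the shared gene-body regions were 17.8% of all shared regions, 29.9% of them were longer in KO and the median difference was -214 bp. With the limit at 10 they numbered 3668, with 15.2%, 28.4% and -214 bp. With the 20000 strongest peaks of each list there were 1560 in 1269 host genes, with 9.78%, 29.9% and -180 bp. Where the shorter length had to be at least 50% of the longer, the values were 17.4%, 30.2% and -168 bp. The share of shared regions was 13.98% at 10 kb from every gene boundary, 23.9% at 2 kb and 22.7% with coding gene boundaries only. A 1 kb gap when merging gave 30.8% longer and -214 bp, and it turned Adcy7 to 2312 bp. By summit reads scaled to background, an alternative chosen after seeing the data, 34.8% were higher in KO. Medians of several lists turned, among them lists with many regions. T cell surface and cytokine receptor genes came to -25 bp at −log10 q of 5, -152.5 bp at 10, and -212 bp both with the 20000 strongest peaks and with the 50% overlap. With the 20000 strongest peaks, T cell receptor and lymphoid signalling genes came to -230 bp over 12 regions, B cell genes to 9 bp over 1, and ubiquitous long genes to 360.5 bp. By summit reads, with all their regions kept, lymphoid transcription factors turned to -0.070 and ubiquitous long genes to 0.035 (log2). Their medians by length were 135 bp and -22.5 bp. Fibroblast and endothelial genes came to 0 bp with the 20000 strongest peaks. Of the list medians, 100 of 110 kept their direction. The 20 regions with the largest differences all fell short of the 50% overlap. Under the settings that can change a single region (q limits, strongest peaks and merging gap), 71 of 72 values kept their direction, but only 42 of the 72 were still regions called in both lists. Where a single list was left, the direction was fixed by which list kept its peak. Regions left in neither list gave no value. The regions were also picked for the size of this same difference, so the count of 71 is no check of it.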
